A study of Mus musculus with 6 samples.

Results

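Antiviral interferon-stimulated genes were followed in mouse keratinocytes that carried the v-rasHa oncogene and were grown with or without Anakinra, a blocker of the interleukin-1 receptor. The set held 46 genes that interferons are known to induce and whose products act on viruses or other intracellular microbes. They were found by the gene name on each probe, by an older synonym of that name or by the probe's accession. Of the 46 genes, 45 had at least 1 probe among the 27529 genes named on the array, and Xaf1, which codes for a partner of the apoptosis inhibitor XIAP, had none under its name or accession. A total of 41 passed the filter on dim probes and were tested among 16447 genes. Oas1g, Oas2, Gbp5 and Iigp1 were too dim to test.

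Type I interferons bind the receptor chains Ifnar1 and Ifnar2, whose kinases phosphorylate transcription factors such as Stat2. A complex that holds Stat2 and Irf9 binds the interferon-stimulated response element (ISRE) in the promoters of antiviral genes, while the response to interferon gamma runs through another element, the gamma-activated site (GAS). Keratinocytes respond to interferons and to viral nucleic acid with many of these genes, and NF-kB, which the interleukin-1 receptor activates, takes part in switching on interferon beta itself.

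Total RNA came from cultures of primary keratinocytes of newborn wild type mice, isolated with hair follicle buds. All cultures of both groups were transduced with v-rasHa by adenovirus infection, at a multiplicity of infection of 10 with Polybrene at 4 µg/ml to aid uptake. In the Anakinra group the antagonist was given at 5 µg/ml from 5 hours after transduction, the cultures were kept for 3 more days and the antagonist was replaced after 2 days. The control group received PBS. Each group had 3 arrays, 1 per culture, and cultures without the oncogene or without virus were not analysed here. Nothing in the labels says that the cultures came from separate animals, so a p-value speaks only of the spread among the 6 cultures.

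Probes well above background made up between 55.63% and 86.47% of an Anakinra array (the highest on Anakinra 2) and between 62.48% and 70.97% of a PBS array. Signals of 2 arrays correlated at 0.957 to 0.983 within the Anakinra group and at 0.995 to 0.997 within the PBS group. Anakinra 1, PBS 2 and PBS 3 shared slide 1, and Anakinra 2, Anakinra 3 and PBS 1 shared slide 2. All 10 keratinocyte markers were well above background on all 6 arrays. Il1a, a ligand of the blocked receptor, changed by -1.51 ± 0.09 (log2, ± SE, Anakinra minus PBS; limma adjusted p = 0.00387) and Nfkbia, a target and inhibitor of NF-kB, by -1.23 ± 0.08 (adjusted p = 0.00730).

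The promoters of the genes show which elements the letters hold, apart from any array value. RefSeq promoters (build GRCm38.p6) were at hand for 34 of the 46 genes. The ISRE core, searched as GAAANNGAAA on both strands (N is any base) in the 250 bases before the start, was present in 17 of the 34, against 3.46% of 27025 genes. The GAS letters TTCNNNGAA were present in 20.6% of the 34 against 8.13% of all, and the NF-kB site in 8.82% against 9.0%. The 150 bases before the start of 6 genes are printed with ISRE matches in capitals: Isg15, Bst2 and Gbp2, lower with Anakinra on all 3 arrays, Oas1a, which has the letters but overlapped between groups, and Oasl2 and Ifitm3, which lack the letters and were lower on all 3 arrays.
Isg15, chr4:156200819-156200968, minus strand: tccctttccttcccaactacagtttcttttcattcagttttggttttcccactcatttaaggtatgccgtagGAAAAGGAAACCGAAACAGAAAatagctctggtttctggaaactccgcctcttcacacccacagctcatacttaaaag
Bst2, chr8:71537473-71537622, minus strand: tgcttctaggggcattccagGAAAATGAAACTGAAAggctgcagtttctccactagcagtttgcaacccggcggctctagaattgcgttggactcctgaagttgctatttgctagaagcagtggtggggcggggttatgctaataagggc
Gbp2, chr3:142620513-142620662, plus strand: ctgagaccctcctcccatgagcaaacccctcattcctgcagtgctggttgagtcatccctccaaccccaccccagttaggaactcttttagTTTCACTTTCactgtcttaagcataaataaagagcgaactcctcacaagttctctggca
Oas1a, chr5:120907526-120907675, minus strand: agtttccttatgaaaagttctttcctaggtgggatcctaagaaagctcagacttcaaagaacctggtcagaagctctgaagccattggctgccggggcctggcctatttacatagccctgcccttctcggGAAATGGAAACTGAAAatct
Oasl2, chr5:114896784-114896933, plus strand: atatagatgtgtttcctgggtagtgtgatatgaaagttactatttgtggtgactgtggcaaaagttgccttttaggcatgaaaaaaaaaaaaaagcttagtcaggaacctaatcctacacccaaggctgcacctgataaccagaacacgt
Ifitm3, chr7:141010745-141010894, minus strand: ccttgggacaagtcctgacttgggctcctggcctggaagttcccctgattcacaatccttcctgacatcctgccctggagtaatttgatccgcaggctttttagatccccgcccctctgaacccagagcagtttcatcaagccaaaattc
In Isg15 the capitals run over 3 overlapping matches, in Bst2 and Oas1a over 2, and in Gbp2 over 1 on the opposite strand. The first ISRE match of Bst2 also overlaps a GAS match. No ISRE match lies in the 250 bases before Oasl2 or Ifitm3. The start used for Oas1a lies inside the gene's RefSeq span (chr5:120896256-120907544). Its last printed bases, with nearly all of the capitals, therefore fall within that span. The last printed bases of Oasl2 likewise fall within its span (chr5:114896926-114912245). A match is a stretch of letters and was not tested as a binding site.

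Each signal is a log2 intensity from which the array's own 75th percentile was subtracted, so 0 marks the brightness of that percentile, and values of different probes are not comparable as RNA amounts. Under Anakinra 6 of the 41 tested genes were lower at an adjusted p under 0.05 (limma, Benjamini-Hochberg over 16447 genes), where 0.796% of all genes tested were called lower. They were Ifitm3, Bst2, Oasl2, Isg15, Parp14 and Rnf213, with log2 changes between -1.33 and -0.73. None was called higher by limma, against 0.973% of all genes, and 1, Isg20, was higher at an unadjusted p under 0.05 while 15 were lower. All 3 Anakinra arrays lay below all 3 PBS arrays for 13 genes, 31.7% of those tested, against 13.8% of all genes. They lay above for 1 gene, against 12.5% of all genes. The median change of the 41 genes was -0.26, against 0.01 for all genes tested. Since 7 of the 41 passed the filter only through the PBS arrays, the same counts were taken over the 34 genes above background on all 6 arrays: 6 were called lower, against 0.89% of 14048 such genes, 12 did not overlap in that direction, against 15.8%, and the median was -0.26. RNA came from whole cultures, so fewer cells of a type and less RNA per cell cannot be told apart.

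**Figure D1:**
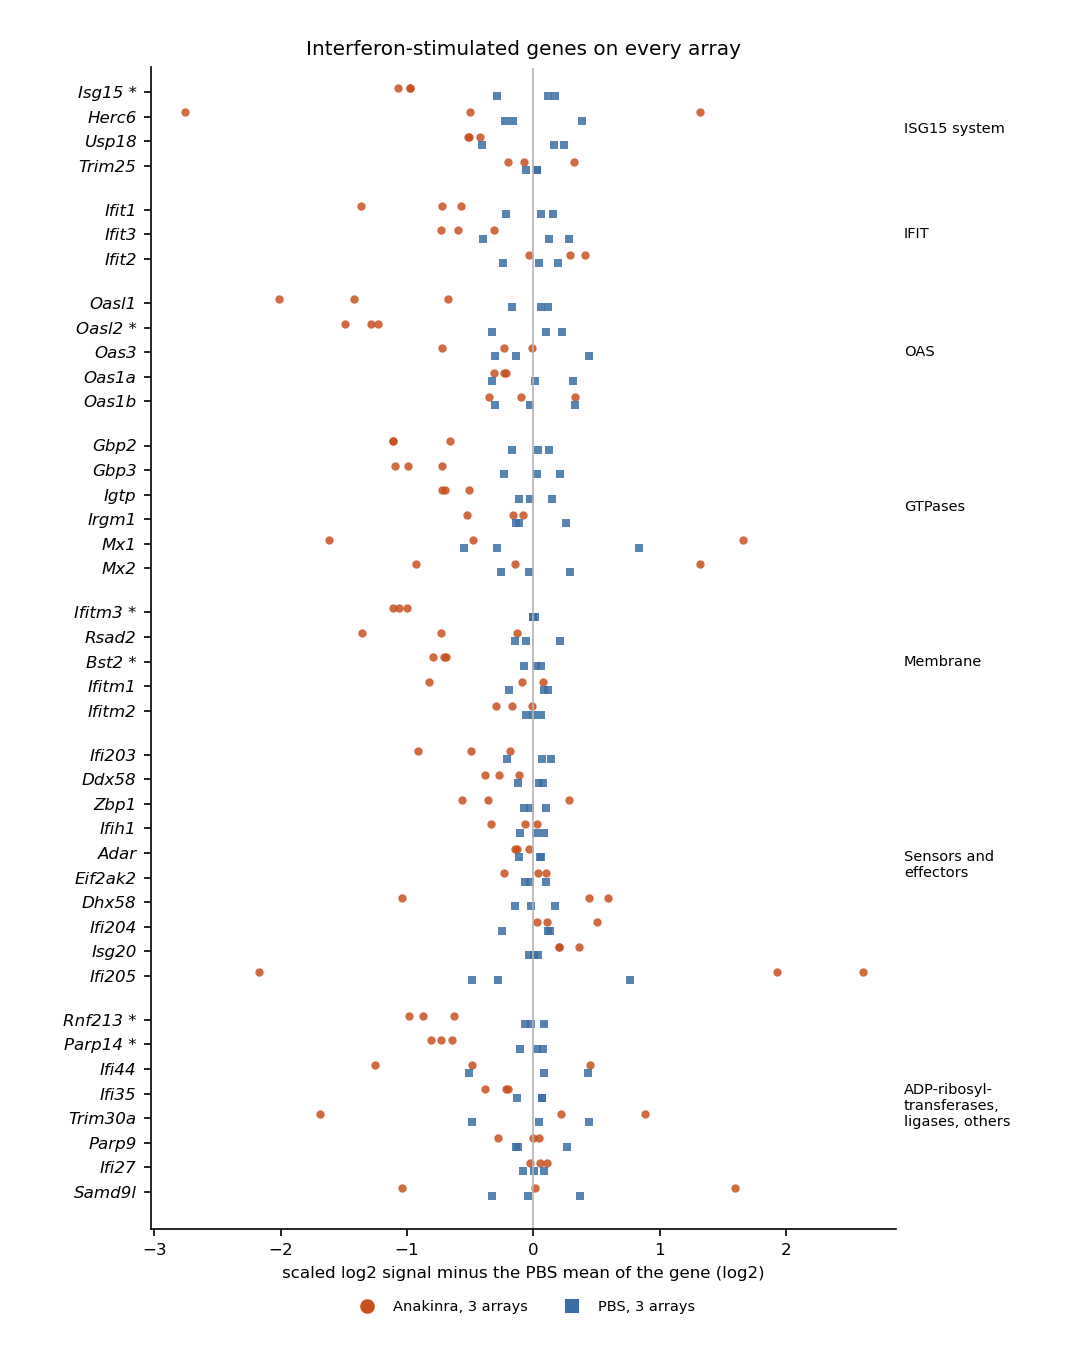
Scaled log2 signal of the 41 tested genes on every array, given as the difference to the gene's PBS mean (x axis, log2). Circles are the 3 Anakinra arrays, drawn above squares for the 3 PBS arrays, genes are grouped by role, and a star marks the 6 genes called lower. For 13 genes the circles lie wholly left of the squares, and for Isg20 wholly right.

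ISG15 is a ubiquitin-like protein that is attached to other proteins and also secreted. Isg15 had signals of 0.90, 0.80 and 0.89 on the Anakinra arrays, against 2.04, 1.59 and 1.99 on the PBS arrays. The Anakinra arrays lay close together and below every PBS array, and PBS 2 was the lowest of its group. The change was -1.01 ± 0.14 (2.01-fold lower; limma adjusted p = 0.0389). The only Isg15 probe carries the RefSeq accession of Isg15, but the array design places it at chr17:45870420-45870479 (mm8), while RefSeq has the gene at chr4:156199424-156200818 (GRCm38.p6). Of 74 probes of these genes with a position it was the 1 on a chromosome other than the gene's own, and over the array 124 of 32988 such probes (0.376%) were. That check compared chromosomes only. A second Ifitm2 probe, which does not stand for the gene, is placed at chr7:46700586-46700645, far from the first at chr7:140806333-140806392 (mm8). The sequence of the Isg15 probe was not used here, so what it hybridises with was not tested. Without Isg15 the called genes number 5 and the median of the rest stays at -0.26.

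Of the 4 genes of the set in the ISG15 system, the other 3 were not called. Usp18, the protease that removes ISG15 and a brake on the interferon receptor, had signals of -1.10, -1.09 and -1.0 with Anakinra, against -0.34, -0.99 and -0.42 with PBS. The groups did not overlap, though PBS 2 lay next to the Anakinra arrays, and the change was -0.48 ± 0.19 (adjusted p = 0.297). Herc6, the main ISG15 ligase of the mouse, varied more among the Anakinra arrays (-4.46, -2.63 and -6.71) than between groups (PBS -4.11, -4.18 and -3.57), and was well above background on 2 of the 3 Anakinra arrays. Trim25, a ubiquitin ligase that activates the RNA sensor RIG-I, was at 0.73, 0.60 and 1.13 with Anakinra, against 0.84, 0.74 and 0.84 with PBS. Its groups overlapped (0.02 ± 0.15, adjusted p = 0.979), and its second probe was at -0.14.

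Ifit1, Ifit2 and Ifit3 code for proteins that bind viral RNA, lie side by side on chromosome 19 and did not share 1 direction. None was called by limma, and 2 were lower at an unadjusted p under 0.05. Ifit1 had signals of -4.18, -3.40 and -3.54 with Anakinra, against -2.76, -3.03 and -2.66 with PBS. Every Anakinra array lay below every PBS array, Anakinra 1 lowest, with a change of -0.89 ± 0.24 (1.85-fold lower; adjusted p = 0.165). Ifit3 had -2.01, -1.59 and -1.87 with Anakinra, against -1.16, -1.68 and -0.99 with PBS. PBS 2 lay below Anakinra 2, so the groups overlapped, and the change was -0.55 ± 0.22 (adjusted p = 0.305). A second, dimmer probe named Ifit3 was at 0.28 with Anakinra arrays spread between -5.37 and -2.60. The design places that probe at chr19:34678580-34678639, against chr19:34654612-34654671 for the first (mm8). This distance is longer than the gene's RefSeq span (chr19:34583119-34588982, GRCm38.p6), and whether the second probe measures Ifit3 was not tested. Ifit2 was at -3.24, -2.92 and -2.79 with Anakinra, against -3.44, -3.16 and -3.01 with PBS, which overlap (0.22 ± 0.17, adjusted p = 0.588). A second Ifit2 probe, well above background on 2 of the 3 Anakinra arrays, pointed the other way at -0.85, with PBS arrays from -4.60 up to -2.34. With quantile scaling Ifit2's first probe had a negative sign too, at -0.12.

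The 2'-5' oligoadenylate synthetases make the short nucleic acid that activates RNase L, and their relatives include the 2 genes with the lowest changes of the whole set. Oasl2, which in the mouse keeps synthetase activity, had signals of -2.31, -2.52 and -2.26 with Anakinra, against -0.93, -1.35 and -0.80 with PBS. Every Anakinra array lay well below every PBS array, and the change was -1.33 ± 0.17 (2.52-fold lower; limma adjusted p = 0.0311). Oasl1, which in the mouse holds back translation of Irf7, had signals of -4.87, -4.13 and -5.47 with Anakinra, against -3.39, -3.62 and -3.34 with PBS. The Anakinra arrays were all lower but spread widely, and the change of -1.37 ± 0.35 was not called (limma adjusted p = 0.151). Since 1 Anakinra array was not well above background, Oasl1 passed the filter only through the PBS arrays, where it was higher. Oas3 had -3.58, -3.36 and -4.07 with Anakinra, against -3.48, -3.65 and -2.91 with PBS. Those groups overlapped (-0.32 ± 0.27, adjusted p = 0.626), and a second Oas3 probe was at 0.95 with 2 of the 3 Anakinra arrays well above background. Oas1a, an active synthetase, and Oas1b, the flavivirus resistance gene that RefSeq annotates as a transcribed pseudogene, changed by -0.25 and -0.04 and overlapped.

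The GTPases of this set include proteins that attack the membranes of vacuoles that hold microbes, and the Mx proteins, which block viral nucleocapsids. None of 6 was called by limma, 3 were lower at an unadjusted p under 0.05 and the same 3 did not overlap. Igtp (Irgm3), an immunity-related GTPase, had signals of -1.06, -1.09 and -0.88 with Anakinra, against -0.39, -0.48 and -0.22 with PBS. Every Anakinra array lay below every PBS array, and the change of -0.65 ± 0.10 lay just outside the threshold (1.56-fold lower; adjusted p = 0.0590). Gbp2, a guanylate-binding protein, had -2.65, -2.65 and -2.19 with Anakinra, against -1.70, -1.50 and -1.41 with PBS. Its paralog Gbp3 had -3.39, -3.01 and -3.29 with Anakinra, against -2.27, -2.53 and -2.08 with PBS. Both were lower on every Anakinra array, at -0.96 ± 0.16 (adjusted p = 0.0631) and -0.94 ± 0.16 (adjusted p = 0.0647). Irgm1 overlapped at -0.25 ± 0.17. Mx1 and Mx2, which RefSeq annotates as transcribed pseudogenes in the reference mouse, were at -0.15 ± 0.91 and 0.08 ± 0.59, and in both Anakinra 2 was the highest array of all 6, though only 1 Anakinra array had Mx1 well above background.

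Among the genes for membrane-bound restriction factors 2 of 5 were called lower. Ifitm3 sits in endosomal membranes and hinders fusion of entering viruses. It had signals of 5.26, 5.15 and 5.20 with Anakinra, against 6.26, 6.26 and 6.28 with PBS. Replicates were nearly level within each group and the groups lay about 1 log2 unit apart, at -1.06 ± 0.06 (2.08-fold lower; limma adjusted p = 0.00387). Its neighbours on chromosome 7, Ifitm2 (-0.16 ± 0.09, adjusted p = 0.486) and the dim Ifitm1 (-0.28 ± 0.26, adjusted p = 0.661), overlapped between groups; whether Ifitm3 differs from them was not tested.

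Bst2, or tetherin, holds budding virions at the cell surface. Its signals were 2.87, 2.78 and 2.89 with Anakinra, against 3.64, 3.50 and 3.60 with PBS. No arrays overlapped, and the change was -0.73 ± 0.07 (1.66-fold lower; limma adjusted p = 0.0160). Rsad2, or viperin, makes a nucleotide that stops viral polymerases. Its brightest probe had -4.29, -3.07 and -3.67 with Anakinra, against -3.0, -3.09 and -2.73 with PBS. Anakinra 2 overlapped the PBS arrays there, and the change was -0.74 ± 0.33 (adjusted p = 0.356). The other 2 Rsad2 probes had every Anakinra array below every PBS array, at -1.17 ± 0.19 (adjusted p = 0.0770 when every probe was fitted on its own) and -1.19 ± 0.24 (adjusted p = 0.118).

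The sensors of viral nucleic acid and the effectors that act on it had no called gene by limma among 10. At an unadjusted p under 0.05, 1 was lower and 1 higher, and the median change was -0.07. Ddx58, or RIG-I, had signals of -0.77, -0.88 and -0.61 with Anakinra, against -0.42, -0.62 and -0.45 with PBS. Only Anakinra 3 overlapped, lying just above PBS 2, and the change was -0.26 ± 0.10 (adjusted p = 0.318). The other 3 Ddx58 probes were at -0.32, -0.36 and 0.05. Ifih1 (MDA5), Dhx58 (LGP2), Eif2ak2 (the kinase PKR), Zbp1 (a sensor of Z-form nucleic acid) and the RNA editing enzyme Adar overlapped between groups, at changes between -0.22 and -0.0032.

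Isg20, an exonuclease that degrades RNA, went the other way. It had signals of 0.50, 0.66 and 0.50 with Anakinra, against 0.26, 0.30 and 0.33 with PBS. Every Anakinra array was higher, by a small margin, and the change of 0.26 ± 0.07 did not pass (1.19-fold higher; adjusted p = 0.188). Its second probe was at 0.13, again without overlap, and with median scaling, which shifted all genes by -0.32, the first probe was at -0.075, or 0.24 above the median of all genes. Ifi204, a DNA-binding protein of the p200 family, had -0.13, -0.05 and 0.35 with Anakinra, against -0.41, -0.04 and -0.02 with PBS. The groups overlapped (0.21 ± 0.18, adjusted p = 0.625), and its other probes were at 0.04 and -0.11. Of its relatives, Ifi203 was at -0.53 ± 0.21 (adjusted p = 0.307) and Ifi205 at 0.79 ± 1.33, with Anakinra arrays between -6.59 and -1.82.

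Of the 8 tested genes for ADP-ribosyltransferases, ubiquitin ligases and other products, 2 were called lower. Parp14, which adds single ADP-ribose units to proteins, had signals of -1.65, -1.57 and -1.48 with Anakinra, against -0.81, -0.94 and -0.77 with PBS. The groups lay clearly apart, at -0.73 ± 0.08 (1.66-fold lower; limma adjusted p = 0.0237). Its other 2 probes were far dimmer, each well above background on 1 of the 3 Anakinra arrays, and overlapped at -0.79 and -0.63. Rnf213, a very large ubiquitin ligase that coats intracellular bacteria, had 0.01, -0.10 and 0.27 with Anakinra, against 0.97, 0.88 and 0.83 with PBS. Anakinra 3 was the highest of its group and still below every PBS array, and the change was -0.83 ± 0.11 (1.78-fold lower; limma adjusted p = 0.0389).

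The other 6 genes of that group changed by -0.43 to 0.19. Ifi35, a partner of the protein Nmi, was lower on every Anakinra array by a small margin (-0.27 ± 0.09, adjusted p = 0.255). Ifi44, Parp9 (a partner of the ubiquitin ligase Dtx3l), Trim30a, Ifi27 and Samd9l (a restriction factor of poxviruses) overlapped. The Ifi27 probe carries the older name D12Ertd647e, while 3 probes that the design calls Ifi27 belong to the neighbouring gene Ifi27l2a by their accession and were at 0.10 to 0.11.

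**Figure D2:**
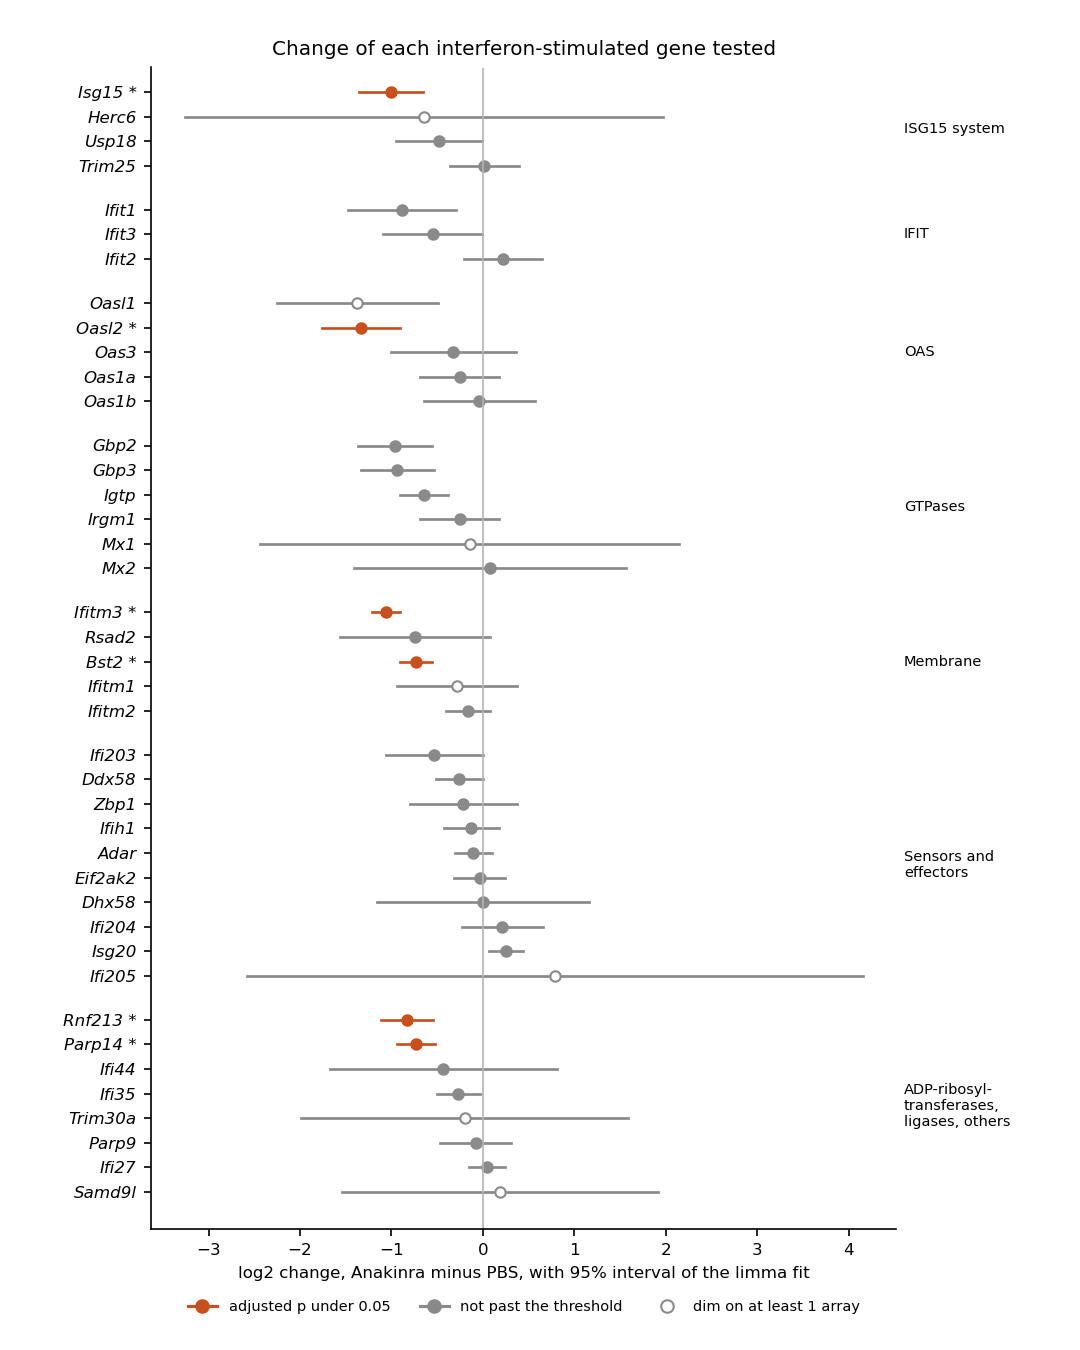
Log2 change of each tested gene, Anakinra minus PBS (x axis), with the 95% interval of the limma fit as a bar, grouped by role. Filled points were well above background on all 6 arrays, open points (7 genes) were not, and the 6 orange genes passed the threshold, at changes between -1.33 and -0.73.

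The spread between arrays was widest among dim genes. Of the tested genes, 16 had a mean signal under -3, and their SE had a median of 0.34, against 0.09 for the 9 genes with a mean signal above 0. All genes tested had the same pattern, with a median SE of 0.46 for the 4314 under -3 and 0.09 for the 7635 above 0. No dim gene of the set was called lower, while 4 of those 9 were. Over all genes tested, at any brightness, 0.796% were called lower, and the share at each brightness is not given here. Among the 16 dim genes Anakinra 2, the array with the most probes above background, was the highest of the Anakinra arrays in 13, and among the 9 bright genes in 2. The part of this array's background in the values of the dim genes was not tested. Over the 41 genes the median distance from the PBS mean was -0.70 on Anakinra 1, -0.17 on Anakinra 2 and -0.42 on Anakinra 3, against -0.02 on PBS 1, -0.13 on PBS 2 and 0.15 on PBS 3.

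Within slides, 27 genes were lower with Anakinra on both slides and 1 was higher on both. Another 11 were lower on slide 1 alone, where Anakinra 1 stands against 2 PBS arrays, 1 was lower on slide 2 alone, and Eif2ak2 was at 0.00 on both. Such counts are not given for all genes. The median change of the 41 genes was -0.67 within slide 1 and -0.20 within slide 2. All genes that passed the filter within a slide, 16831 on slide 1 and 18380 on slide 2, had medians of -0.04 and 0.09. The 43 genes of the set among those 18380 had a median of -0.18. The 13 genes without overlap, the called genes among them, had to be lower on both slides, since every Anakinra array lay below every PBS array. For the called genes only the sizes within slides are therefore informative. Ifitm3 was at -1.0 within slide 1 and -1.08 within slide 2, Bst2 at -0.68 and -0.80, Parp14 at -0.79 and -0.72, Oasl2 at -1.24 and -1.46, Isg15 at -0.89 and -1.20, and Rnf213 at -0.84 and -0.89.

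**Figure D3:**
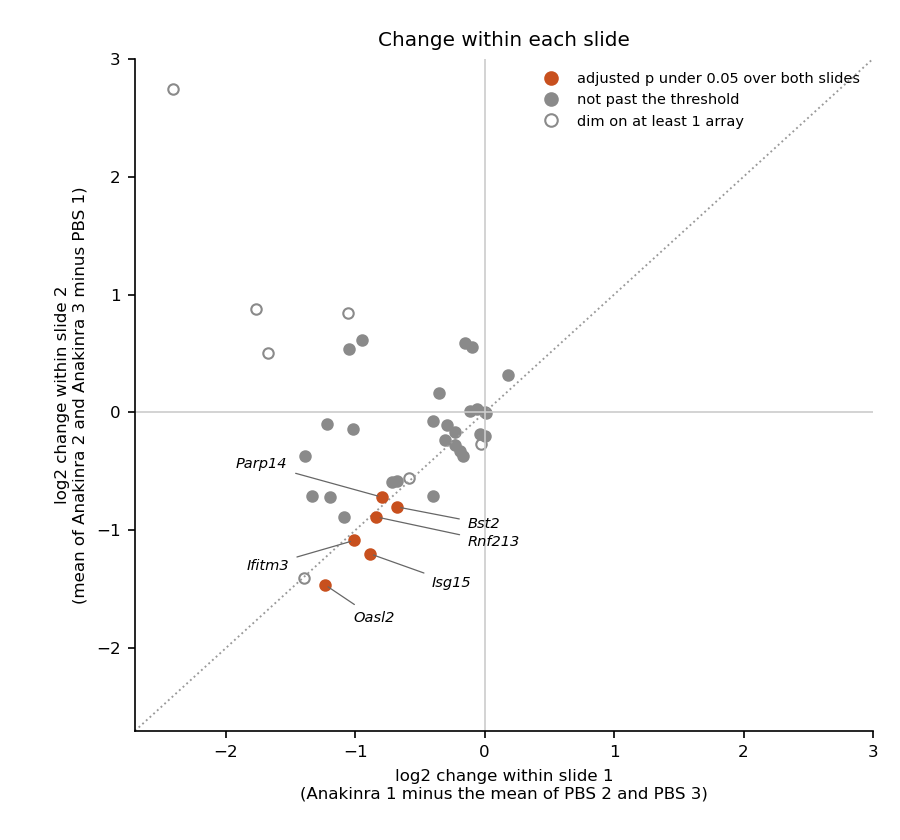
Log2 change of the 41 tested genes within slide 1 (x axis, Anakinra 1 minus the mean of PBS 2 and PBS 3) and within slide 2 (y axis, mean of Anakinra 2 and Anakinra 3 minus PBS 1), with the line of equal change dotted. The 6 called genes (orange) lie near that line, between -1.46 and -0.68 on either axis. Their negative sign on both axes follows from groups that do not overlap. The genes with opposite signs lie mostly at upper left, where slide 1 is negative and slide 2 positive.

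The calls changed with the model and with the arrays that entered it. With the slide as a block Ifitm3 was the only gene past the threshold (-1.04, limma adjusted p = 0.0377), where 0.249% of all genes were called lower, and the other 5 had adjusted p values between 0.0748 and 0.123 at nearly the same changes. Without PBS 1 or PBS 2 no gene was called by limma (11 and 16 lower at an unadjusted p under 0.05), without PBS 3 or Anakinra 1 only Ifitm3 was, and without Anakinra 2 or Anakinra 3 there were 3. Over all genes, leaving out 1 array gave 7 (without PBS 2) to 143 (without Anakinra 2) called lower, against 131 with all arrays. Fitted probe by probe, 4 of 60 probes were called lower, in Ifitm3, Bst2, Oasl2 and Parp14, where 0.501% of all probes were. The change was negative in all 116 alternative values computed for the 6 genes. Fits on the same scaled values of the same probe had to be negative, as the groups do not overlap. Outside the fits within slides, limma adjusted p values ran from 0.00117 (Ifitm3, filter on all 6 arrays) to 0.868 (Bst2 and Parp14, median scaling).

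Genes with and without the ISRE letters in their promoter both held lower genes. Of 15 tested genes with a match, 6 did not overlap and were lower, 2 were called (Isg15 and Bst2) and the median change was -0.55. Of 16 tested genes with a promoter but no match, 5 did not overlap and were lower, 3 were called (Oasl2, Ifitm3 and Rnf213) and the median was -0.26. Oasl1, among those 5, passed the filter only through the PBS arrays. Over all genes tested, 13.8% did not overlap and were lower, 0.796% were called lower and the median change was 0.01. The difference between the genes with and without a match was not tested.

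Other genes of the interferon pathway were set beside them. Of 48 tested interferon-stimulated genes outside the set, 6 were called lower and 1 higher, with a median of -0.17. Over all genes tested 0.796% were called lower and 0.973% higher, with a median of 0.01. The scramblase gene Plscr1 had 0.70, 0.45 and 0.81 with Anakinra, against 1.77, 2.13 and 1.84 with PBS (-1.26 ± 0.14, limma adjusted p = 0.0240). Rtp4, a receptor transporter, was at -1.25 ± 0.17 (adjusted p = 0.0377), Phf11a at -0.89 ± 0.12 (adjusted p = 0.0333) and Nmi at -0.46 ± 0.06 (adjusted p = 0.0388). Uba7, the enzyme that activates ISG15 for conjugation and was singled out after its values were seen, had -3.51, -3.28 and -3.55 with Anakinra, against -2.48, -2.49 and -2.07 with PBS (-1.10 ± 0.15, adjusted p = 0.0392). The last of the 6, likewise outside the rule, was Psme2, a subunit of a proteasome activator, at -0.45 ± 0.07 (adjusted p = 0.0464). The nucleotide hydrolase gene Samhd1 was the 1 called higher, at -0.96, -0.87 and -1.03 with Anakinra, against -1.82, -1.91 and -1.75 with PBS (0.87 ± 0.08, adjusted p = 0.0152). A slide block removed all 7 of these calls, at limma adjusted p values between 0.0745 and 0.156. Over all genes that block left 41 called lower and 23 higher, against 131 and 160 without it.

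**Figure D4:**
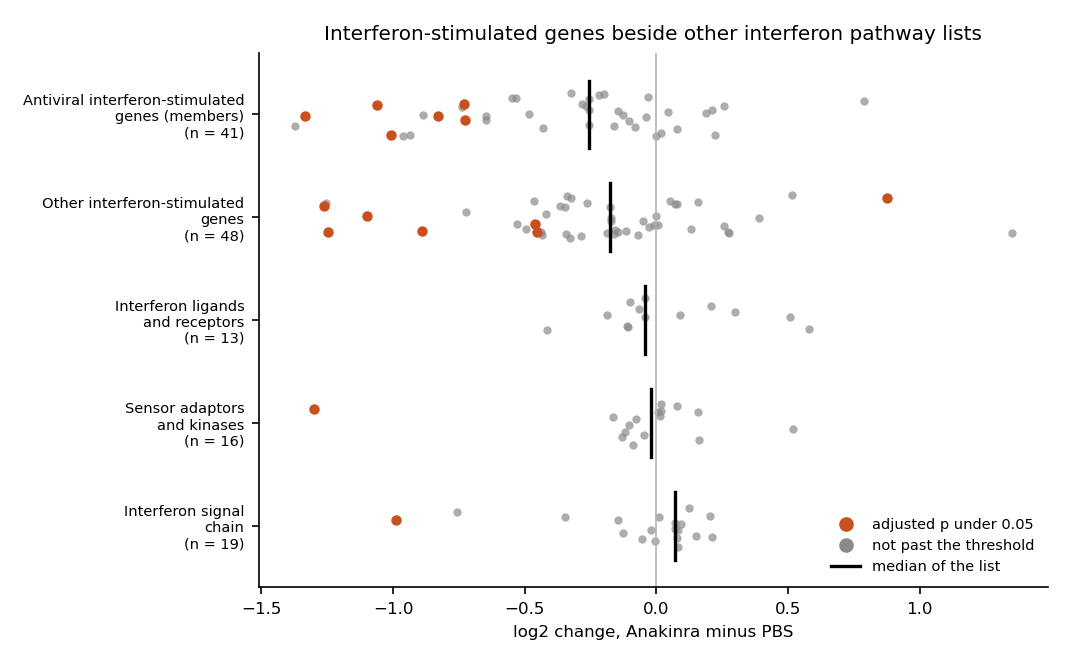
Log2 change, Anakinra minus PBS (x axis), of every tested gene of 5 lists (rows; n is the number tested), with points spread vertically for legibility. Orange points passed an adjusted p of 0.05 and black bars are list medians, which run between -0.26 for the antiviral genes and 0.07 for the signal chain.

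Interferon beta and the interferon known from keratinocytes were too dim to test. Ifnb1, interferon beta, was well above background on 1 of the 3 Anakinra arrays and on 0 of the PBS arrays, and Ifnk, the keratinocyte interferon, on none. Ifna6, Ifna9, Ifna12, Ifna13, Ifnab, Ifnz and Ifnl3 passed the filter and overlapped between groups, at changes between -0.07 and 0.58. Of 13 tested ligands and receptors none was called by limma, with 2 lower at an unadjusted p under 0.05. The receptor chains Ifnar1 (-0.10 ± 0.15, adjusted p = 0.817) and Ifnar2 (-0.11 ± 0.10, adjusted p = 0.654) overlapped between groups. The chains of the interferon gamma receptor, Ifngr2 (-0.41 ± 0.07, adjusted p = 0.0621) and Ifngr1 (-0.19 ± 0.07, adjusted p = 0.277), lay lower on every Anakinra array without passing.

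Of 19 genes of the signal chain 1 was called, the transcription factor Irf1. Its signals were 1.39, 1.07 and 1.28 with Anakinra, against 2.15, 2.28 and 2.27 with PBS, with no overlap (-0.99 ± 0.10, limma adjusted p = 0.0198; 0.0617 with the slide as a block). Stat2 (0.15 ± 0.13) and Irf9 (0.0087 ± 0.11) overlapped, at adjusted p values of 0.652 and 0.986. Irf7, which amplifies interferon production, had -2.36, -1.78 and -2.69 with Anakinra, against -1.31, -1.86 and -1.39 with PBS. Anakinra 2 overlapped PBS 2, and the change was -0.76 ± 0.28 (adjusted p = 0.280). Of 16 adaptors and kinases upstream of interferon, Ikbke, a kinase that activates Irf3 and Irf7, was called, at -0.75, -0.72 and -0.68 with Anakinra, against 0.67, 0.57 and 0.52 with PBS (-1.30 ± 0.07, adjusted p = 0.00347; 0.0230 with the slide as a block).

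Markers of other cells that the cultures could hold were measured beside these results. Macrophage and Langerhans cell markers had a summed linear scaled signal of 3.18 to 3.75 on the Anakinra arrays, against 3.26 to 3.62 on the PBS arrays, with 7 of 13 above background on all arrays, and the defining genes Adgre1 and Ptprc above it on at most 1 array a group. Of the 9 tested markers of that list, 7 had a negative sign and none was called by limma, but 3 were lower at an unadjusted p under 0.05: Csf1r (-0.33 ± 0.11) and Cd14 (-0.30 ± 0.06), both without overlap, and Fcer1g (-0.40 ± 0.15). No T cell marker was above background on all arrays (0 of 3). Of the plasmacytoid dendritic cell markers other than Bst2, Tcf4 was the 1 of 3 above background on all arrays (0.32 ± 0.11, adjusted p = 0.263), and Siglech and Clec10a were above it on 1 Anakinra array and no PBS array; the 3 summed to 1.27 to 1.63 with Anakinra, against 1.08 to 1.16 with PBS. Fibroblast markers, all 10 of which were above background on every array, summed to 14.4 to 16.5 with Anakinra, against 12.1 to 14.6 with PBS, and 2 of them, Lum (1.43 ± 0.15, adjusted p = 0.0198; 0.0550 with the slide as a block) and Col3a1 (0.95 ± 0.13, adjusted p = 0.0400; 0.142 with that block), were called higher. Another 2, Twist2 (-0.79 ± 0.14, adjusted p = 0.0709) and Dcn (-0.38 ± 0.07, adjusted p = 0.0699), were lower on every Anakinra array without passing. All 8 melanocyte markers had a positive sign, 4 without overlap, with Kit at 0.41 ± 0.09 (adjusted p = 0.122), and they summed to 105 to 114 with Anakinra, against 90.9 to 109 with PBS. Of 3 tested endothelial markers, Egfl7 (-0.26 ± 0.08, limma adjusted p = 0.227) and Kdr (-0.45 ± 0.15, limma adjusted p = 0.241) were lower without overlap. The third, Pecam1, overlapped at 0.12 ± 0.23 (limma adjusted p = 0.871). Cdh5, Tek and Emcn were too dim to test, above background on 2, 1 and 2 Anakinra arrays and on 0 PBS arrays. Kdr was dim, well above background on 1 Anakinra array and 3 PBS arrays, so it passed the filter only through the PBS arrays. The endothelial list, in which Egfl7 was the brightest tested gene, summed to 1.83 to 2.01 with Anakinra, against 2.02 to 2.14 with PBS. Keratinocyte markers summed to 1405 to 1576 with Anakinra, against 1468 to 1636 with PBS. Beside these marker counts, 13.8% of all genes tested were lower and 12.5% higher without overlap, and 0.796% were called lower and 0.973% higher. The part of the marked cell types in the changes of the antiviral genes was not tested.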

How the data were processed

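Total RNA was measured on 6 Agilent one-colour arrays, 3 of Anakinra and 3 of PBS cultures; groups came from the treatment labels. The processed intensity deposited by the authors was background-subtracted within each array by Agilent Feature Extraction 9.5.3.1, per the file headers, and was not normalised between arrays. The authors' deposited value table, on a log2 scale, equals that signal plus 1 constant per array, to within 0.0005, and served as an alternative. Here log2 intensity was scaled to each array's 75th percentile without control spots and outlier flags, and spots of a probe were averaged. A probe was kept if all 3 arrays of either group had it well above background, with 2 or more values per group. The probe with the highest mean stood for a gene. Names were updated by accession, then by symbol or synonym (RefSeq, GRCm38.p6). limma 3.58.1 in R 4.3.3 was fitted on all genes without covariates, two-sided, with Benjamini-Hochberg adjustment, and tested on simulated data. The number of arrays limits the precision.

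The genes and lists were chosen with earlier results of these data known, so no list was tested and no p was adjusted over a list. Values on every array are given for called genes, for genes with a change of at least 1 in size without overlap, for genes whose probes differ in sign or lie on another chromosome, and for the gene with the smallest p of each role; Usp18, Herc6, Gbp2, Gbp3 and Rsad2 were added after their values were seen. Of other lists, up to 5 called genes by smallest p and a few fixed ones are named, with Uba7, Psme2 and further cell markers added after their values were seen; 1 fixed gene is not reported here. Alternatives were other scalings, normexp background correction (offset 50), other filters, the mean of probes, the slide or the replicate number as a block, array weights, the value table and each array left out. The replicate numbers were not taken as pairs: the deviations of same-numbered arrays correlated at 0.408, -0.493 and -0.212. Fits by probe and within slides were added after seeing the data.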

Additional observations from a re-analysis of the deposited data

How the results depend on the processing

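The count of 6 genes called lower and the median change of -0.26 moved with some settings, while no setting called a gene higher. Scaling to the median called 1 (Oasl1) and gave a median of -0.59; that scaling shifted all genes by -0.32, so the set lay -0.27 from all genes as before, and it called 49 genes lower and 8 higher among all genes, against 131 and 160. Quantile scaling gave a median of -0.52 with 6 called, 5 of them the same, where 163 of all genes were called lower. Without a filter on dim probes 1 was called, where 29 of 27529 genes were called lower. With the slide as a block 1 was called, where 41 of all genes were called lower. With the values the authors deposited 3 were called, where 124 of all genes were called lower. Normexp background correction called 9, adding Gbp2, Gbp3 and Oasl1 to the 6, where 169 of all genes were called lower. The filter on all 6 arrays also called 9, adding Gbp2, Gbp3 and Igtp, where 241 of 14067 genes were called lower. Within slides, where a group has 1 array, limma called 0 of the set and 0 of all genes, which says nothing of stability (16 and 3 were lower at an unadjusted p under 0.05); the median was -0.67 within slide 1. With the replicate block 0 were called, as for all genes, and 12 were lower at an unadjusted p under 0.05. Whether the replicate numbers mark pairs is not known. Leaving out 1 array called 0 to 3 and gave medians of -0.48 (without Anakinra 2) to -0.17 (without PBS 3). The cause was not tested. Median scaling put Ifi204 at -0.12, Ifit2 at -0.11, Isg20 at -0.075 and Trim25 at -0.31, which is 0.0031 to 0.24 above the median of all genes under that scaling, so their sign there is that of the common shift. Genes that were not called changed sign under other settings: quantile scaling put Ifit2 at -0.12. With the mean of a gene's probes Ifit2 was at -0.31 (its probes differ in sign), Oas3 at 0.32 and Trim25 at -0.063. With the slide as a block Trim25 was at -0.014, and within slide 1 Ifi204 was at -0.10, Ifit2 at -0.15 and Trim25 at -0.058. Leaving out 1 array put Trim25 between -0.14 and 0.13. Single probes of Ddx58 (0.046), Ifi204 (-0.11), Ifit2 (-0.85), Ifit3 (0.28), Oas3 (0.95) and Trim25 (-0.14) opposed the probe that stands for the gene. Of these, the Ifit3 probe is placed farther from the first than the gene's RefSeq span is long. Dim probes, Oasl1 and the Mx genes among them, limit what 3 arrays a group can show.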
